A study of Drosophila melanogaster with 3 samples.

Results

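The 7 basic helix-loop-helix (bHLH) repressor genes of the Enhancer of split complex, E(spl)mdelta-HLH, E(spl)mgamma-HLH, E(spl)mbeta-HLH, E(spl)m3-HLH, E(spl)m5-HLH, E(spl)m7-HLH and E(spl)m8-HLH, were examined for binding of 1 of their own products, E(spl)mβ. They were taken by name, 7 of 13945 protein-coding genes on the chromosome arms of Drosophila melanogaster, with earlier results of these data known. Binding was mapped by chromatin immunoprecipitation with sequencing in mixed-sex whole embryos aged 0 to 24 h of the strain E(spl)m-beta-GFP, a stable transgenic line in which the protein carries green fluorescent protein (GFP) at its C terminus, with an antibody to GFP. There were 3 biological replicates of this 1 group and no other genotype, stage or treatment, so no difference between groups could be tested. The sources used here do not give the promoter, insertion site or extent of the transgene. Reads from the tagged copy of E(spl)mbeta-HLH, with whatever flanking sequence it carries, cannot be told apart here from reads of the endogenous locus.

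E(spl) bHLH proteins are repressors made in cells that receive a Notch signal. In the embryo they hold back the neural fate in the neighbours of a forming neuroblast or sense organ precursor. Notch activation releases its intracellular domain, which joins the DNA-binding protein Su(H) and switches the complex on, and proneural activators bind there too. The repressors contact DNA through a basic region that prefers E boxes and the related N box, and recruit the co-repressor Groucho through a short C-terminal motif. Each of the 7 genes has a single exon in the annotation, with 1 transcription start site (TSS), and they lie close together on 3R between E(spl)mdelta-HLH (25997621) and E(spl)m8-HLH (26041008) in the dm6 build.

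The deposited data are peak lists: 1 for each replicate, 1 for the pooled alignments (30000 peaks each) and a list of 8549 peaks selected by the irreproducible discovery rate (IDR). Signal is the authors' value per peak, on a scale that the files do not state, and it ranks peaks within a list but not between lists. The lists hold no read counts, and the depth behind each value is unknown. Whole embryos mix many cell types and ages, and binding in more cells and stronger binding per cell cannot be told apart. A summit is the position of a peak's maximum, and the territory of a gene is the gene and the sequence on both sides up to the next annotated gene of any kind, noncoding RNA genes included.

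The territories of the 7 genes held 23 distinct IDR summits in 16 peak intervals. Their median signal was 929.4 (lowest 304.3, highest 19605.9), and 16 of them were above the median of the whole IDR list, 535.3. Over the 43.4 kb from E(spl)mdelta-HLH to E(spl)m8-HLH the IDR list had 37 summits, or 8.53 per 10 kb, against 0.640 per 10 kb over all arms. Of the 23 summits, 16 lay upstream of at least 1 of the 7 genes and 7 only downstream. None of the IDR or pooled summits lay inside any of the 7 genes. Replicate 1 had 2 weak summits near the ends of E(spl)m7-HLH, at ranks 14504 and 14676, replicate 2 had 1 near the TSS of E(spl)m5-HLH at rank 14477, and replicate 3 had none. Among all protein-coding genes of at most 1500 bp, 2.88% held an IDR summit, so the absence of summits inside these short genes was shared by most genes of their size.

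**Figure D1:**
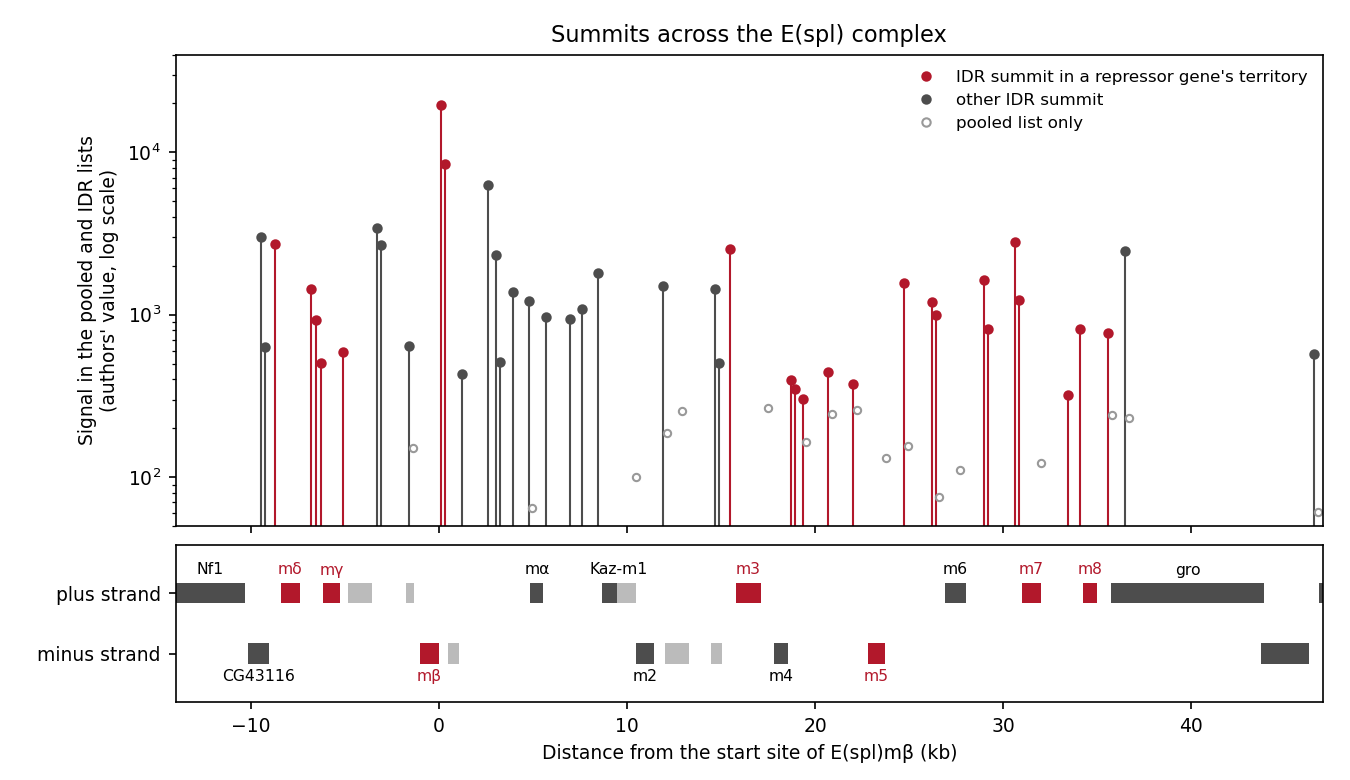
Summits of the pooled and IDR lists across the E(spl) complex (upper panel, signal on a log scale against distance from the TSS of E(spl)mbeta-HLH in kb) above the annotated genes by strand (lower panel; repressor genes red, other protein-coding genes dark, noncoding genes light). The 2 highest points, at signals of 19605.9 and 8429.2, stand just upstream of E(spl)mbeta-HLH, and IDR summits occur along the whole complex.

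The DNA under the strongest summit of each gene is shown first, because its base composition and its sites divided the 7 genes. The windows reach 100 bp to each side of the summit and are written 5′ to 3′ on the strand of the gene, from the RefSeq copy of the Release 6 genome. Capitals mark matches on either strand to 3 sites known for E(spl) and Hairy proteins: the E box CACGTG, the Hairy site CACGCG and the N box CACNAG. They also mark the Su(H) core as GTGGGAA or as GTGAGAA. The last pair of windows are the second-strongest summits of E(spl)mbeta-HLH and E(spl)mgamma-HLH, which hold Su(H) cores.
E(spl)mdelta-HLH, chr3R:25997195-25997395, plus strand: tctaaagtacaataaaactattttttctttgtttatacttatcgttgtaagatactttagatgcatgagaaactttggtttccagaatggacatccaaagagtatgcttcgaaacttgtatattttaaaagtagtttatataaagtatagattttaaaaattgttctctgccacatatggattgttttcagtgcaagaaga
E(spl)mgamma-HLH, chr3R:25999138-25999338, plus strand: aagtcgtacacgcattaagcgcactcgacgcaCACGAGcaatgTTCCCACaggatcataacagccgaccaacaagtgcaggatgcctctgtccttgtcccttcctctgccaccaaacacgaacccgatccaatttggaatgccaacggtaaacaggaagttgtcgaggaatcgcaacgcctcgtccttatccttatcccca
E(spl)mbeta-HLH, chr3R:26006047-26006247, minus strand: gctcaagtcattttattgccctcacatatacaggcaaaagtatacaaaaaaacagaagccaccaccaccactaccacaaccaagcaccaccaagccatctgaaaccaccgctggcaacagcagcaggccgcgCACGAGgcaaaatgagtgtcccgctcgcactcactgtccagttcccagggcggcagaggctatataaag
E(spl)m3-HLH, chr3R:26021383-26021583, plus strand: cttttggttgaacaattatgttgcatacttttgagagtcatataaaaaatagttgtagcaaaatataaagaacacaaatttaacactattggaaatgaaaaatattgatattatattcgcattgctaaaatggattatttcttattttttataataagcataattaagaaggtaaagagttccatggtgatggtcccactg
E(spl)m5-HLH, chr3R:26030672-26030872, minus strand: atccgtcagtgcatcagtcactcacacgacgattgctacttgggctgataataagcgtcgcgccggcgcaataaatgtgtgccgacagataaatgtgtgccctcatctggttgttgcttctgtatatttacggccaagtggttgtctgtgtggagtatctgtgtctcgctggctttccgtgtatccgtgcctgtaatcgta
E(spl)m7-HLH, chr3R:26036569-26036769, plus strand: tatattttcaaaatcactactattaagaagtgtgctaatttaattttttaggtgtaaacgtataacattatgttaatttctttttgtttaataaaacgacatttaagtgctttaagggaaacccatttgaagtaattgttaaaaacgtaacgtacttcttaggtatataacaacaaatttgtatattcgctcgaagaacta
E(spl)m8-HLH, chr3R:26039981-26040181, plus strand: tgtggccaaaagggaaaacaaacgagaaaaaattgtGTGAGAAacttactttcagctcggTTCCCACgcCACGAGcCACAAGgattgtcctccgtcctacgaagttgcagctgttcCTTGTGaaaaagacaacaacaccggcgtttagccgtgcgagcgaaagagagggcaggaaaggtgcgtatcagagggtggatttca
E(spl)mbeta-HLH, chr3R:26006275-26006475, minus strand: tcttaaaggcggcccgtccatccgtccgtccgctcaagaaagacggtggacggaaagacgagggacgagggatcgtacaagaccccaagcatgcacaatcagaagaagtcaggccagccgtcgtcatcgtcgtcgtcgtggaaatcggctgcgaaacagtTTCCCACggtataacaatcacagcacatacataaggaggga
E(spl)mgamma-HLH, chr3R:25999401-25999601, plus strand: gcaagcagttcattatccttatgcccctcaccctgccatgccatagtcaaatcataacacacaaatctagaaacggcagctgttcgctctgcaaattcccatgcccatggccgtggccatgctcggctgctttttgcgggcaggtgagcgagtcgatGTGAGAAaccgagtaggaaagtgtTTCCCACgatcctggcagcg

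Base composition divided these windows. Those of E(spl)m7-HLH, E(spl)m3-HLH and E(spl)mdelta-HLH had 25.4%, 26.4% and 27.9% GC. The windows of E(spl)mbeta-HLH and E(spl)mgamma-HLH had 52.2%, and those of E(spl)m5-HLH and E(spl)m8-HLH 49.8%. None of these 5 sites was matched at the strongest summit of the 3 genes with the AT-rich windows or of E(spl)m5-HLH, while that of E(spl)m8-HLH held 3 N boxes and a pair of Su(H) cores. Over all 8549 IDR summits the median was 34.8%, and over the 23 summits of the territories it was 49.8%.

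E(spl)mbeta-HLH (FBgn0002733, 3R 26005046 to 26006023, minus strand), the gene of the tagged protein, had both of its IDR summits upstream of its TSS. The stronger, at 26006147, lay 124 bp upstream and had signals of 9675.1, 4870.8 and 4982.9 in replicates 1, 2 and 3, rank 1 in each. The other, at 26006375, ranked 5, 6 and 118 in the replicates, lowest in replicate 3. Both fell in 1 peak interval, and IDR intervals covered 58.6% of the gene, the largest share among the 7. How much of this signal comes from the transgene was not measured.

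E(spl)mbeta-HLH also has the shortest territory, because noncoding RNA genes flank it closely. Counted out to the next protein-coding genes, it had 12 IDR summits instead of 2, E(spl)mgamma-HLH had 7 instead of 4 and E(spl)m3-HLH had 4 instead of 1, while the counts of the other 4 genes did not change. The added summits included those at 26008644 (signal 6333.4, ranks 15, 37 and 149) and 26002714 (3400.9, ranks 130, 141 and 563), 2621 and 3309 bp from the TSS of E(spl)mbeta-HLH. Of the 12 added summits, 3 lay inside noncoding RNA genes.

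E(spl)m7-HLH (FBgn0002633, 3R 26037038 to 26038019, plus strand) had its strongest summit at 26036669, 369 bp upstream of its TSS. Among the strongest summits of the 7 genes it was in place 2 in the IDR list and replicate 1 and in place 4 in replicates 2 and 3. Its signals were 1366.3, 629.1 and 775.2 in replicates 1, 2 and 3, at ranks 236, 306 and 477. Within each list this was 14.1%, 12.9% and 15.6% of the signal at E(spl)mbeta-HLH, 14.2% ± 1.32 (SD, n = 3), a narrow spread. A further summit stood 168 bp upstream (signal 1224.8), and a pair lay 2016 and 1815 bp upstream (1629.5 and 816).

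E(spl)mdelta-HLH (FBgn0002734, 3R 25997621 to 25998633, plus strand) had its strongest summit at 25997295, 326 bp upstream of its TSS. The signals were 1024.6, 720.9 and 1098.6 in replicates 1, 2 and 3, at ranks 433, 227 and 235, which is 15.8% ± 5.79 (SD, n = 3) of the signal at E(spl)mbeta-HLH. This summit lies between divergent genes and was nearer to the TSS of CG43116 (299 bp) than to that of E(spl)mdelta-HLH. CG43116 itself (25995879 to 25996996, minus strand) held a stronger summit at 25996565 (signal 2991.4). The summit at 25997295 can therefore not be assigned to either gene by distance alone.

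E(spl)m3-HLH (FBgn0002609, 3R 26021823 to 26023127, plus strand) had a single IDR summit in its territory, at 26021483, 340 bp upstream of its TSS and 407 bp from that of lncRNA:CR43644. Its signals were 813.5, 675.5 and 1145.8 in replicates 1, 2 and 3, at ranks 681, 266 and 213. Replicate 1 was the lowest by rank, and relative to E(spl)mbeta-HLH the signal was 15.1% ± 7.37 (SD, n = 3), the widest spread among the 7 genes.

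E(spl)mgamma-HLH (FBgn0002735, 3R 25999851 to 26000761, plus strand) had 3 summits in a row upstream, 613, 350 and 76 bp from its TSS, with IDR signals of 1449.6, 929.4 and 505.6, and a summit 1092 bp past its TSS, beyond the end of the gene (587.6). The 3 upstream summits also lie downstream of E(spl)mdelta-HLH and were counted in both territories. The strongest had signals of 834.9, 310.5 and 298.6 in replicates 1, 2 and 3, at ranks 647, 1111 and 2206, or 7.00% ± 1.42 (SD, n = 3) of the signal at E(spl)mbeta-HLH. The signal was lower at each upstream summit nearer to the TSS.

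E(spl)m5-HLH (FBgn0002631, 3R 26028854 to 26029735, minus strand) had the most IDR summits, 8, in the longest territory, 8331 bp. The strongest, at 26030772, lay 1037 bp upstream of its TSS, with signals of 940.7, 361.2 and 273.8 in replicates 1, 2 and 3 and ranks of 518, 875 and 2457, or 7.54% ± 2.12 (SD, n = 3) of the signal at E(spl)mbeta-HLH. The 5 summits downstream of the gene were all weak, between 304.3 and 445.9. None of its bases lay under an IDR peak. A pooled summit 63 bp upstream of its TSS had a signal of 131.8, rank 17290, and a counterpart within 100 bp in replicate 1 alone.

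E(spl)m8-HLH (FBgn0000591, 3R 26040240 to 26041008, plus strand) had the lowest of the 7 strongest summits, at 26040081, 159 bp upstream of its TSS. Its signals were 450.9, 246.2 and 161.8 in replicates 1, 2 and 3, at ranks 1821, 1661 and 4694, or 4.32% ± 0.951 (SD, n = 3) of the signal at E(spl)mbeta-HLH. Another summit, at 26041585 (770.3), lay 1345 bp past this TSS, beyond the end of the gene. It stood upstream of gro, which starts at 26041736 on the plus strand, so distance alone does not assign it to E(spl)m8-HLH. The summit at 26039467 (320.6) had no counterpart in replicate 2.

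**Figure D2:**
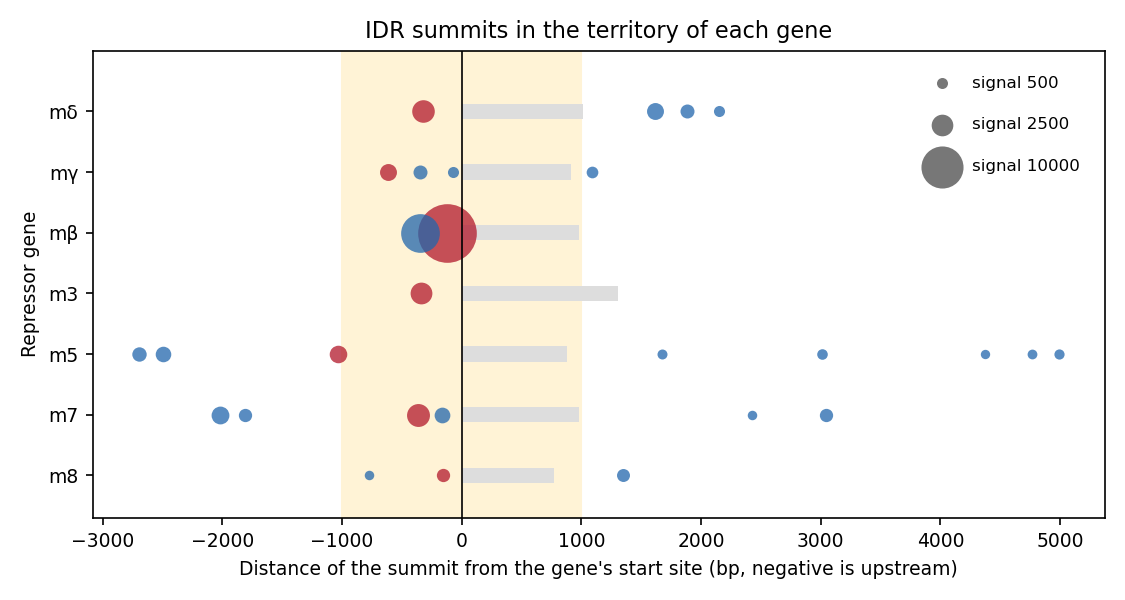
IDR summits in the territory of each repressor gene against their distance from its TSS in bp (negative is upstream); the area of a point grows with its signal, red points are the strongest summit of a gene, grey bars the genes and the shaded band 1000 bp to each side of the TSS. The strongest summit lay upstream of the TSS in all 7 genes, by 124 to 1037 bp, and only that of E(spl)m5-HLH lay outside the band.

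Genes with a TSS at most 1000 bp from an IDR summit were called bound. By this call 6 of the 7 repressor genes were bound (85.7%), beside 32.1% of all 13945 protein-coding genes. Neighbours can share a summit and all 7 lie within 34217 bp of the tagged gene's TSS, so they are not independent draws and no test was made. The median of the highest signal over all 4475 bound genes was 713.1, and each of the 6 bound members was above it. Signals higher than at E(spl)m7-HLH were found at 6.82% of bound genes, higher than at E(spl)mdelta-HLH at 7.44% and higher than at E(spl)m3-HLH at 8.76%. For E(spl)mgamma-HLH the share was 21.2%, and for E(spl)m8-HLH 43.9%. E(spl)m8-HLH therefore stood near the middle of bound genes. E(spl)m5-HLH, at 1037 bp, missed the call narrowly. The next farthest nearest summit was that of E(spl)m3-HLH, at 340 bp. E(spl)m5-HLH was called bound within 2000 bp, in the pooled list and where the peak interval replaced the summit.

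Support by the replicates was read from summits within 100 bp among the 8549 highest-ranked peaks of each. The strongest summit of each of the 7 genes had such support in all 3 replicates. Of all 23 summits in the territories, 17 (73.9%) did, beside 63.5% of all IDR summits. The 3 summits with support in 1 replicate only were at 26024969 and 26025360, downstream of E(spl)m5-HLH, and at 26039467, between E(spl)m7-HLH and E(spl)m8-HLH. Summits in a list were never closer than 199 bp, the smallest gap in each of the 5 lists, and 6 of the 23 had another within 210 bp, beside 13.1% of all IDR summits.

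The order of the genes held at its ends and not in its middle. E(spl)mbeta-HLH was first and E(spl)m8-HLH last in each replicate. E(spl)m7-HLH, E(spl)m3-HLH and E(spl)mdelta-HLH had overlapping ranges of ranks, 236 to 477, 213 to 681 and 227 to 433, and took places 2 to 6 in changing order. The ranges of E(spl)m5-HLH (518 to 2457) and E(spl)mgamma-HLH (647 to 2206) overlapped as well, and both overlapped that of E(spl)m3-HLH. That of E(spl)m8-HLH (1661 to 4694) overlapped those of E(spl)m5-HLH and E(spl)mgamma-HLH, although it ranked below both within each replicate. With 3 replicates of 1 group, these orders are descriptions.

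**Figure D3:**
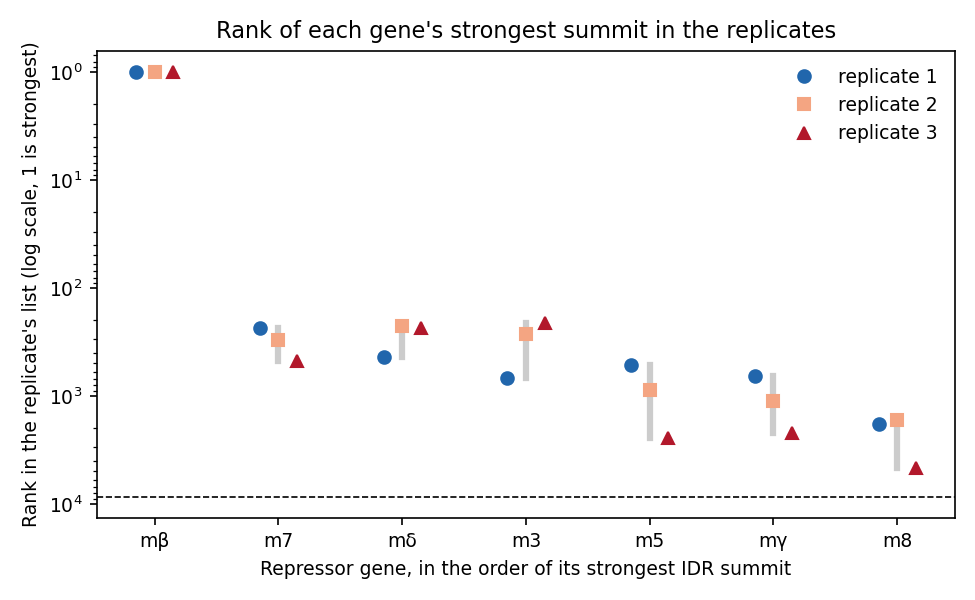
Rank of the strongest summit of each repressor gene in the lists of replicates 1, 2 and 3 (log scale, 1 is strongest); the grey bar spans the 3 ranks, and the dashed line marks rank 8549. E(spl)mbeta-HLH was at rank 1 in each replicate and the other genes between ranks 213 and 4694, with replicate 3 the lowest for E(spl)m7-HLH, E(spl)m5-HLH, E(spl)m8-HLH and E(spl)mgamma-HLH.

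The disagreement between replicates moved with base composition. The rank in replicate 3 divided by that in replicate 1 was 0.543 at E(spl)mdelta-HLH and 0.313 at E(spl)m3-HLH, whose windows are poor in GC, and 2.02 at E(spl)m7-HLH, which is equally poor. At the GC-rich windows of E(spl)m8-HLH it was 2.58, at those of E(spl)mgamma-HLH 3.41 and at those of E(spl)m5-HLH 4.74. At E(spl)mbeta-HLH, as rich in GC, it was 1, since that summit was at rank 1 in each replicate. At the other summit of E(spl)mbeta-HLH, with 54.7% GC, the ratio was 23.6, from rank 5 in replicate 1 and rank 118 in replicate 3. Over the 7474 IDR summits with a counterpart in all 3 replicates, the median of this ratio rose from 0.863 below 30% GC to 1.63 at 50% GC or more, with a Spearman correlation of 0.384 between GC content and the ratio. For replicate 2 over replicate 1 the correlation was 0.153. These summits share the 3 libraries, and no p-value is given. The part of base composition in the order of the 7 genes was not tested.

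**Figure D4:**
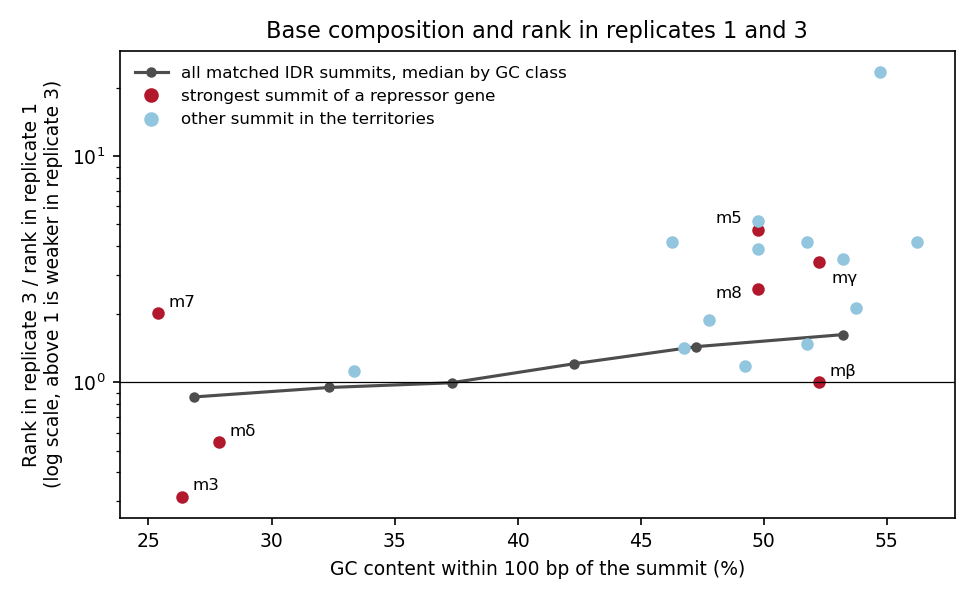
Rank in replicate 3 divided by rank in replicate 1 (log scale) against the GC content within 100 bp of the summit in percent, for the summits of the territories with a counterpart in all 3 replicates; the line joins the medians of all such IDR summits in 6 classes of GC content. The line rises from 0.863 to 1.63, E(spl)m3-HLH (0.313) and E(spl)mdelta-HLH (0.543) lie below 1 at low GC content, and most summits of the territories lie above the line at high GC content.

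Short sites known from this pathway were counted within 100 bp of the 23 summits, and the 95% intervals given are exact binomial ones that cover the counting of windows only. None of these 23 windows overlaps another, but some lie side by side, and neighbours are not independent. The class B E box CACGTG was in 4 windows (17.4%, interval 4.95 to 38.8%), beside 4.07% of all IDR windows. Its extended form GGCACGTG was in none of the 23, and the Hairy site CACGCG in 2 (8.70%, beside 7.23%). The N box CACNAG was in 6 windows (26.1%, beside 19.0%), among them the strongest summits of E(spl)mbeta-HLH, E(spl)m8-HLH and E(spl)mgamma-HLH. For CACGTG the interval lay above the genome-wide share, and for CACGCG and CACNAG it included it. Base composition differed between these sets, so the shares were also taken among windows of at least 45% GC, a limit chosen after the values were seen, which kept 19 of the 23 and 1575 of all IDR windows. There CACGTG was in 4 of 19 (21.1%) beside 158 of 1575, a share inside the interval given above. CACNAG was in 31.6% beside 30.9%, and CACGCG in 10.5% beside 23.0%. None of the 4 windows with CACGTG was a gene's strongest summit: 3 were the weak summits at 26024969, 26026724 and 26028059 downstream of E(spl)m5-HLH, and the other was at 26032228, between E(spl)m5-HLH and E(spl)m6-BFM.

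In the 500 bp upstream of the TSS, CACGTG was present at E(spl)mdelta-HLH, starting 181 bp upstream, and at E(spl)m7-HLH, 44 bp upstream, where it is part of GGCACGTG. Of all upstream windows of this length, 5.75% held CACGTG and 0.753% held GGCACGTG. Both lay nearer to the TSS than the strongest summit of their gene. N boxes were in 4 of the 7 upstream windows, with 4 at E(spl)m8-HLH, 2 at E(spl)mdelta-HLH and 1 each at E(spl)m7-HLH and E(spl)mbeta-HLH, beside 43.4% of all genes, and CACGCG was in none of the 7, beside 8.81%.

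The core of the Su(H) site, through which Notch acts, was counted in both of its common forms. GTGGGAA was in 6 of 23 windows (26.1%, interval 10.2 to 48.4%), beside 2.20% of all IDR windows. GTGAGAA was in 2 (8.70%), and its interval of 1.07 to 28.0% included the share of all IDR windows, 2.42%. With 50 bp on each side GTGGGAA was in 4.35% beside 0.889%, and GTGAGAA in 0% beside 1.09%, the reverse direction. With 200 bp on each side GTGGGAA was in 43.5% beside 4.82%, and GTGAGAA in 26.1% beside 4.69%. Among windows of at least 45% GC, GTGGGAA was in 6 of 19 (31.6%) beside 3.49%, and GTGAGAA in 10.5% beside 2.73%. The proneural E boxes GCAGCTG and GCAGGTG were in 3 windows each (13.0%, interval 2.78 to 33.6%), beside 3.38% and 1.29%. At 45% GC or more each was in 3 of 19 (15.8%), beside 8.06% and 2.86%, and no interval was computed for these 19 windows. Of the sites of other factors, GAGAG, the core read by GAGA factor, was in 7 windows (30.4%, beside 23.0%, and at 45% GC or more 31.6% beside 41.7%) and CAGGTAG, read by Zelda, in none (beside 0.994%). Upstream of the TSS, GTGGGAA was present within 500 bp at E(spl)mgamma-HLH, E(spl)mbeta-HLH, E(spl)m5-HLH and E(spl)m8-HLH, beside 5.71% of all genes.

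**Figure D5:**
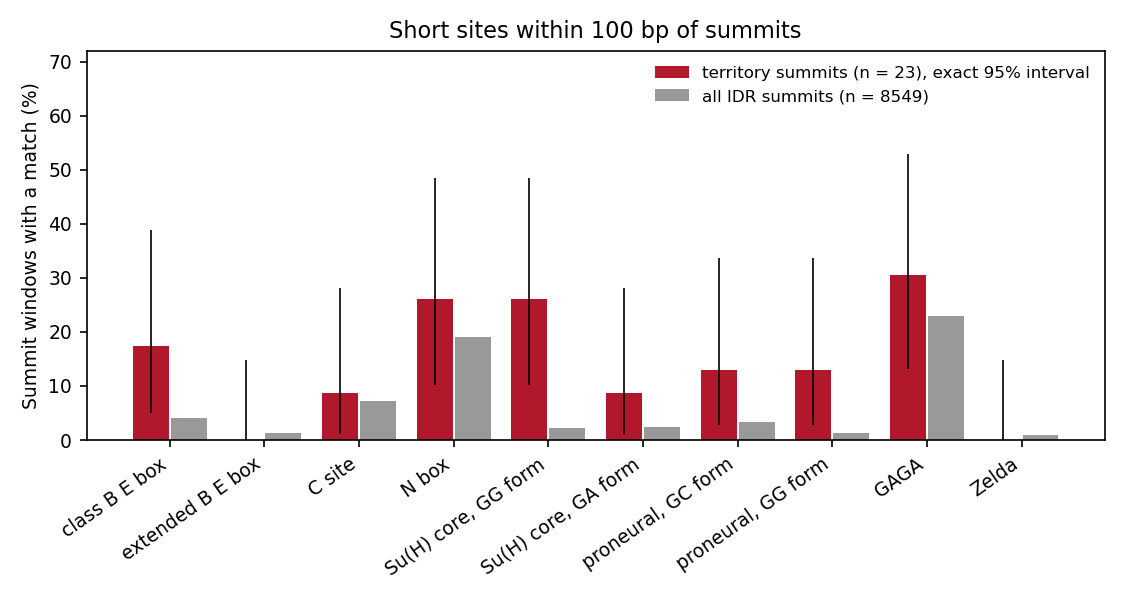
Share of summit windows (100 bp on each side) that hold each short site, in percent, for the 23 IDR summits in the territories (red, with exact 95% binomial intervals) and for all 8549 IDR summits (grey). The intervals of the class B E box and of the GG forms of the Su(H) core and proneural box lie above the grey bar. The grey bar is not matched for GC content. Among windows of at least 45% GC the class B E box was in 4 of 19 in the territories and 158 of 1575 of all. The proneural box in its GG form was in 3 of 19 and 45 of 1575. The intervals drawn are for all 23 windows, and none was computed for these 19.

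Upstream of E(spl)m8-HLH and of E(spl)mgamma-HLH the Su(H) cores faced each other as an inverted pair, the arrangement known as the Su(H) paired site. Such pairs were therefore searched on all arms as GTGAGAA or GTGGGAA followed, after 15 to 17 bases, by TTCCCAC or TTCTCAC, a search chosen after the values were seen. Only 13 pairs were found, and 6 of them lay between E(spl)mdelta-HLH and E(spl)m8-HLH, each with 17 bases between its cores. Of these, 5 are shown here on the plus strand with the cores in capitals.
upstream of E(spl)mgamma-HLH, chr3R:25999558-25999588: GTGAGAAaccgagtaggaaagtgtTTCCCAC
between E(spl)mgamma-HLH and E(spl)mbeta-HLH, chr3R:26002614-26002644: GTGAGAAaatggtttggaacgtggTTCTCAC
upstream of E(spl)m4-BFM, downstream of E(spl)m5-HLH, chr3R:26024859-26024889: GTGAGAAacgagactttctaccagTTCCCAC
upstream of E(spl)m7-HLH, chr3R:26036370-26036400: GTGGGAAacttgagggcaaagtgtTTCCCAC
upstream of E(spl)m8-HLH, chr3R:26040017-26040047: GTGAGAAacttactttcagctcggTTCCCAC

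Of the 6 pairs, 5 had an IDR summit within 100 bp of their centre, at distances of 49 to 95 bp. The exception was the pair upstream of E(spl)m7-HLH, 653 bp from its TSS, which lay 284 bp from the nearest summit, the strongest of that gene. None of the 7 pairs elsewhere on the arms had an IDR summit within 100 bp, and 3 of those 7 had 17 bases between the cores. IDR summits stood at 8.53 per 10 kb in the complex and 0.640 per 10 kb over all arms. The counts of pairs near a summit therefore have unlike backgrounds, and the difference was not tested. Among all 13945 upstream windows of 500 bp, 3 held a pair, those of E(spl)m4-BFM, E(spl)m8-HLH and E(spl)mgamma-HLH. A match gives only that these letters are present, and Su(H) itself was not measured here.

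The other genes of the complex, interleaved with the repressor genes, were bound as well, beside 32.1% of all protein-coding genes. Like the repressor genes they are neighbours that can share summits, so they are not independent draws and no test was made. All 6 were called: gro, which encodes the co-repressor Groucho (2456.8), Kaz-m1, which encodes a Kazal-type protease inhibitor (1804), and 4 genes of the Bearded family, a family known for antagonists of Neuralized, which activates Notch ligands. Among the latter E(spl)m2-BFM had 1502.1, and E(spl)malpha-BFM had 1381.1. E(spl)m6-BFM had 1195.6 and E(spl)m4-BFM, the lowest, 398.6. Both of these summits, at 26032228 and 26024746, were also counted in the territory of E(spl)m5-HLH. The median signal of all 6 was 1441.6. The values of E(spl)m8-HLH and E(spl)mgamma-HLH, 816.6 and 1449.6, lay within the range of these 6, so binding along the complex was not limited to the repressor genes.

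Outside the complex, 3 of 5 other genes of the Hairy family were bound, with hry, which encodes the segmentation repressor Hairy (1179.5), Sidpn (835) and Hey (336.7), and dpn and cwo were not. Of 18 genes of the Notch pathway, 12 were bound (66.7%, beside 32.1% of all genes). The highest of these were l(2)gd1, which acts in endosomal sorting of Notch (4241), numb (3507.2), whose product antagonises Notch, and aph-1, a γ-secretase subunit gene (2358.8). E(spl)m7-HLH, E(spl)m3-HLH and E(spl)mdelta-HLH had signals between those of numb and aph-1. No test was made of these lists, which were chosen with results of these data known.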

How the data were processed

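Peak lists from 3 replicates of 1 group were used. Chromatin was cut to 200 to 800 bp, per the labels. Deposited provenance records give dm6 as the build, list for the peaks of each replicate its alignment and 1 further file shared by all (taken here as the control), and name neither aligner nor peak caller. The deposited signal per peak was used to rank and describe peaks within a list, and the deposited −log10 q-value was read for its range only. Depth is unknown. Peaks off the arms (5 of replicate 1) were left out. Genes came from Ensembl release 115 and sequence from the RefSeq copy of Release 6. Both gave the same positions for the 7 genes, and no peak ended past its arm. Upstream windows ran 500 bp from the outermost TSS of each gene. Percent of the signal at E(spl)mbeta-HLH was taken within each list. Bound calls, medians, shares and exact binomial intervals were computed across all genes or summits with Python 3.11.15 and SciPy 1.17.1, and the motif search and bound call were tested on simulated data. Genes named were the 7 members, the 6 other genes of the complex with their neighbours, and up to 3 of the highest in the other lists; CG43116 and the unbound Hairy family genes dpn and cwo were named after their values were seen. In the lists, h, Dl, nct and E(spl)m1 are annotated as hry, Delta, Nct and Kaz-m1. Members, lists and tests were chosen with earlier results of these data known. The sequence of 1 of the 6 paired Su(H) sites is not reported here. Alternatives were the pooled list, the 4274 strongest IDR peaks, other distances, windows and territories, and leaving out each replicate.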

Additional observations from a re-analysis of the deposited data

How the results depend on the processing

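Counts of IDR summits in the territories were 31 in the pooled list, 16 among the stronger peaks of the IDR list, 17 to 19 without 1 replicate and 35 with territories that end at protein-coding genes. The number of bound repressor genes was 6 or 7 under each alternative, and 6 without any 1 replicate. The gene not bound was E(spl)m5-HLH wherever the number was 6. The share of all protein-coding genes called bound was 28.1% within 500 bp, 38.1% within 2000 bp, 47.2% in the pooled list, 20.7% among the stronger peaks and 25.7 to 26.5% without 1 replicate. Support in all 3 replicates held for 5 of the 7 strongest summits when matched within 50 bp, and for 7 under the other rules. Compared with the order in the IDR list, 4 genes kept their place in replicate 1, 4 in replicate 2 and 3 in replicate 3. With windows of 200 bp on each side CACNAG was in 52.2% of territory summits (37.6% of all IDR summits), and with 50 bp GTGGGAA was in 4.35% (0.889%) and GTGAGAA in 0% (1.09%). CACGTG was in 8.70% (2.35%) with 50 bp and in 30.4% (7.22%) with 200 bp, shares not matched for GC content. No paired analysis was possible because there is 1 group. Since the IDR list was made from all 3 replicates, leaving out 1 meant keeping the IDR summits supported in both others.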
